A study of Zea mays with 6 samples.

Results

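In 30 maize genes the transcript isoform with the highest level was one and the same in all 3 libraries of the edf1-D mutant and a different one in all 3 wild-type (WT) libraries. They were found among 5832 genes that had at least 2 annotated transcripts, a summed level of at least 5 FPKM on average over the 6 libraries and at least 1 FPKM in each library, out of 44303 genes listed in all. FPKM counts fragments per kilobase of transcript, scaled to the number of fragments in the library. It is a level per transcript length, so isoforms of one gene can be set side by side. The mutant plants carried the edf1-D genotype and were compared with WT plants. Both stood in the background of W22, a maize inbred line, grew in a field in spring and had their leaves sampled 25 days after germination. In maize genetics a name ending in D usually stands for a dominant allele. Each genotype had 3 libraries, numbered as replicates 1 to 3, and the labels do not say whether these came from separate plants or pools, so any test measures the spread between libraries, which may be partly technical.

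A plant gene can yield several mature RNAs through alternative splicing, alternative start sites or alternative ends, and the resulting isoforms can differ in the protein they encode, in how fast they decay and in how well they are translated. Short reads often match several isoforms of a gene at once. The level of each isoform is then estimated by dividing shared reads in proportion to the evidence from reads that match one isoform only, so levels of isoforms are less certain than the level of their gene. A value of exactly 0 can be a failed estimate, and such isoforms are called listed at 0 here.

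The IDs of the 30 genes begin with Zm00001eb, as in the B73 gene models, and the gene name column of the files is empty. As 0 of the IDs matched the reference table, no name, function, sequence or position is given for them, and the leaf origin of the samples was not checked with marker genes. The library sums ran between 416517 and 686251 FPKM, and 24187 to 25397 genes had a value above 0. The number of reads behind these values is unknown.

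Among the 5832 genes, 4966 (85.2%) had the same leading transcript in all 6 libraries. A leader that was constant in edf1-D but not in WT was seen in 281 genes, and one that was constant in WT but not in edf1-D in 244 genes. In 311 genes it varied within both genotypes. The 30 genes made up 0.514% of those that could have been chosen. The genes were chosen by the FPKM of their transcripts in all 6 libraries, so the differences in isoform levels between the genotypes are given as descriptions.

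The size of a switch was measured as the mean of 2 differences in percentage points, namely how much more of the gene's summed FPKM the edf1-D leader held in edf1-D than in WT, and how much more the WT leader held in WT than in edf1-D. It ran from 5.13 to 100 points over the 30 genes, with a median of 38.9. It reached 50 points in 14 genes, lay between 20 and 50 in 13 and was under 20 in 3. These classes were set after the values had been seen. The share of the edf1-D leader did not overlap between the genotypes in any of the 30 genes, and that of the WT leader overlapped in 2. In genes with 2 transcripts the rule fixes this outcome, and in the others it favours it. The share over all genes that could be members was not computed, so nothing is read from these counts. Shares are taken within a library, so no rescaling of whole libraries can move them.

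**Figure D1:**
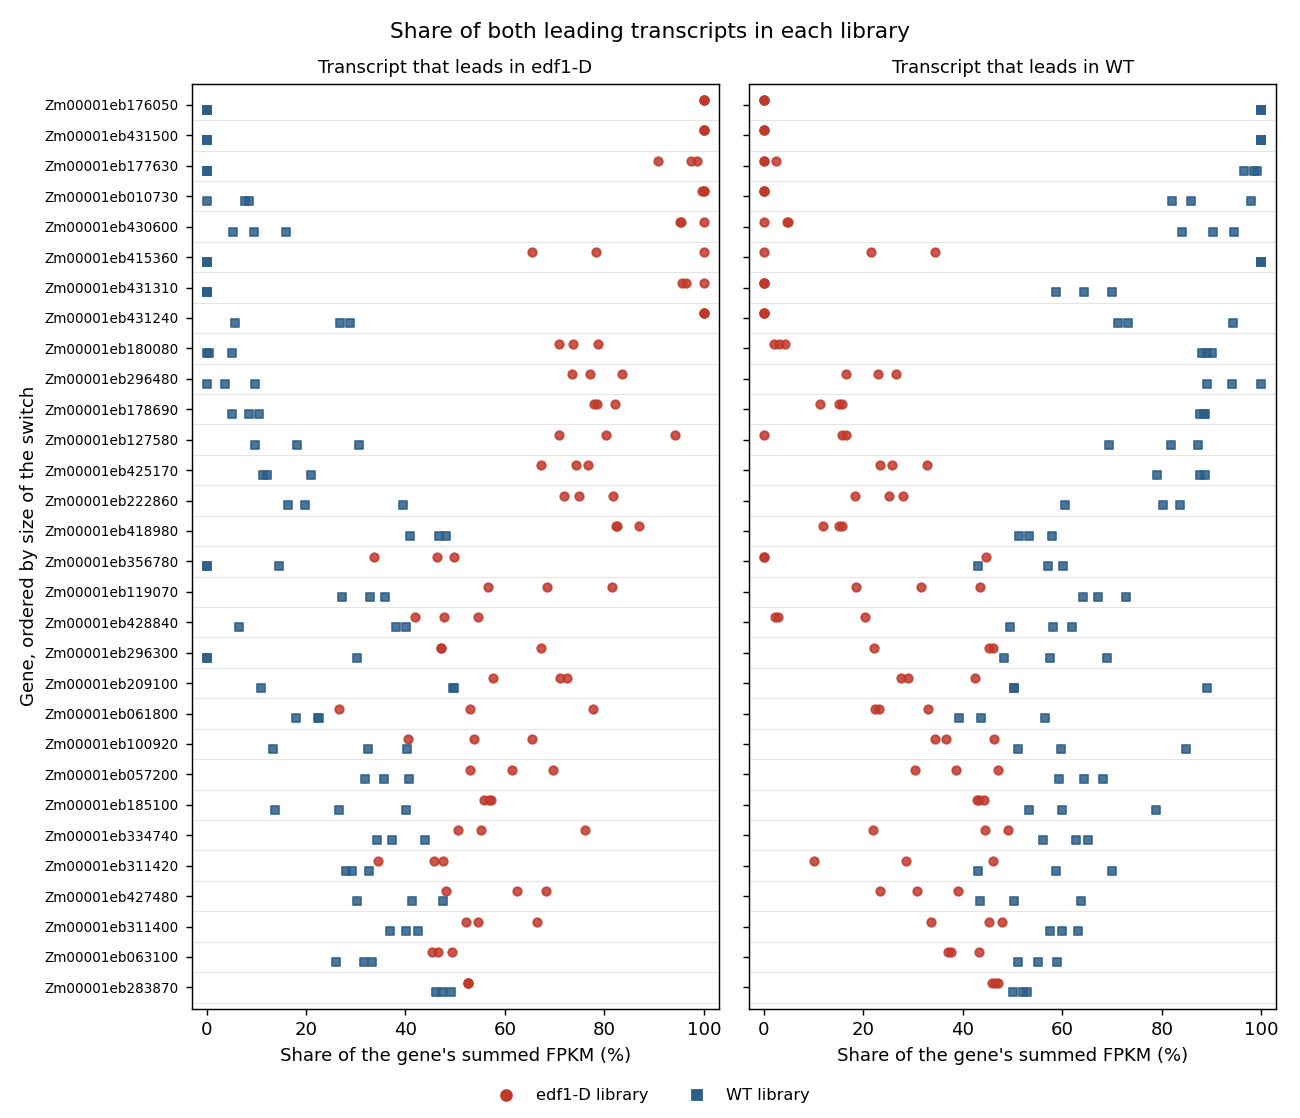
Share of the gene's summed FPKM (%, x axis) held by the transcript that leads in edf1-D (left panel) and by the transcript that leads in WT (right panel), for the 30 genes in the order of their switch. Circles are the 3 edf1-D libraries and squares the 3 WT libraries: the groups lie at 100% and 0% in the uppermost genes and move together down to a switch of 5.13 points in the lowest.

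In 6 genes the isoforms replaced each other almost fully in their share of the gene. Each leader was at 10% or less of its gene in every library of the other genotype. The clearest were Zm00001eb176050 and Zm00001eb431500, each with 2 annotated transcripts and a switch of 100 points. For Zm00001eb176050, transcript T002 stood at 7.62, 10.03 and 5.80 FPKM in edf1-D replicates 1, 2 and 3 and was listed at 0 in all 3 WT libraries. Its T001 was listed at 0 in all 3 edf1-D libraries and stood at 5.09, 5.08 and 5.97 FPKM in WT replicates 1, 2 and 3. Neither isoform was seen in the other genotype, while the gene totals of the genotypes overlapped (7.82 ± 2.12 FPKM in edf1-D and 5.38 ± 0.51 FPKM in WT, SD, n = 3 each).

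Zm00001eb431500 showed the same pattern at a higher level. Its T002 was at 16.9, 22.3 and 13.2 FPKM in edf1-D and listed at 0 in the 3 WT libraries. Transcript T001 was listed at 0 in the 3 edf1-D libraries and at 29.1, 26.2 and 18.0 FPKM in WT. The totals, 17.4 ± 4.57 FPKM in edf1-D and 24.4 ± 5.74 FPKM in WT (SD, n = 3 each), overlapped here as well.

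Zm00001eb177630 has 3 transcripts. T001 was at 23.4, 22.7 and 23.0 FPKM in edf1-D, against 0, 0 and 0.01 FPKM in WT. T003 was at 0, 0.59 and 0 FPKM in edf1-D, against 38.2, 57.3 and 37.0 FPKM in WT. The leader of edf1-D was nearly constant over its 3 libraries, held 95.6% ± 4.21 of the gene (SD, n = 3) and reached a mean level 0.522 times that of the leader it stood in for in WT.

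For Zm00001eb010730, with 5 transcripts, T004 was at 25.2, 25.2 and 24.3 FPKM in edf1-D, against 0, 5.01 and 3.49 FPKM in WT. T003 was listed at 0 in all 3 edf1-D libraries, against 49.5, 50.5 and 37.0 FPKM in WT. T004 was thus present at a low level in WT replicates 2 and 3, while T003 was seen in WT only. The gene total did not overlap between genotypes and averaged 24.9 ± 0.47 FPKM in edf1-D and 51.4 ± 6.86 FPKM in WT (SD, n = 3 each).

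Zm00001eb180080 was the most abundant gene of this kind. T001 was at 53.0, 56.6 and 46.0 FPKM in edf1-D, against 0.55, 0.03 and 3.25 FPKM in WT. T003 was at 2.12, 3.44 and 1.17 FPKM in edf1-D, against 84.4, 70.0 and 56.8 FPKM in WT. A further transcript, T004, was also higher in edf1-D, at 11.3, 16.8 and 7.64 FPKM, than in WT, at 2.38, 2.72 and 1.19 FPKM. The gene thus carried 2 isoforms that were higher in edf1-D beside 1 that was lower, and its totals overlapped (70.0 ± 10.8 FPKM in edf1-D and 78.9 ± 14.6 FPKM in WT, SD, n = 3 each).

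In Zm00001eb431310, a gene with 8 transcripts, T005 was at 2.70, 1.65 and 1.73 FPKM in edf1-D and listed at 0 in the 3 WT libraries. T003 was listed at 0 in the 3 edf1-D libraries and at 6.69, 6.75 and 2.83 FPKM in WT. The gene total was lower in edf1-D, at 2.07 ± 0.55 FPKM against 8.48 ± 3.67 FPKM in WT (SD, n = 3 each). The mean level of T005 in edf1-D was 0.374 times that of T003 in WT. WT leaves held further isoforms of this gene, with 35.6% of its FPKM outside both leaders, against 2.64% in edf1-D. One of them, T008, was listed at 0 in edf1-D replicates 1, 2 and 3 and stood at 2.16, 3.07 and 0 FPKM in WT replicates 1, 2 and 3.

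Another 8 genes had switches between 51.0 and 86.5 points in which a leader kept part of its level in the other genotype. In Zm00001eb430600, T001 was at 18.0, 21.7 and 17.5 FPKM in edf1-D, against 0.8, 3.15 and 1.58 FPKM in WT. T002 was at 0.92, 0 and 0.84 FPKM in edf1-D, against 14.0, 16.6 and 14.8 FPKM in WT. The isoforms changed places while the totals were at 19.7 ± 1.79 FPKM in edf1-D and 17.0 ± 2.52 FPKM in WT (SD, n = 3 each), which overlapped.

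Zm00001eb415360 differed between its edf1-D libraries. T002 was at 24.2, 29.9 and 18.4 FPKM in edf1-D and listed at 0 in all 3 WT libraries. T003 was at 12.7, 0 and 5.08 FPKM in edf1-D, against 28.0, 27.7 and 23.2 FPKM in WT. The WT leader thus held between 0% and 34.5% of the gene in edf1-D, with edf1-D replicate 1 the highest and replicate 2 at 0.

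In Zm00001eb431240, the difference lay in the WT leader alone. T002 was at 4.49, 2.57 and 2.02 FPKM in edf1-D, against 5.88, 7.43 and 1.48 FPKM in WT, so the genotypes overlapped. T003 was listed at 0 in all 3 edf1-D libraries, against 14.5, 20.3 and 24.7 FPKM in WT. T002 therefore led in edf1-D without being higher there than in WT, and the gene total was 3.03 ± 1.30 FPKM in edf1-D and 24.8 ± 3.87 FPKM in WT (SD, n = 3 each).

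The opposite arrangement, a leader added on top of one that was partly kept, was seen in Zm00001eb178690 and Zm00001eb296480. T004 of Zm00001eb178690 was at 78.4, 89.2 and 63.1 FPKM in edf1-D, against 2.74, 3.97 and 1.58 FPKM in WT. Its T002 was at 15.1, 12.3 and 12.7 FPKM in edf1-D, against 28.1, 33.1 and 27.0 FPKM in WT. T002 was lower in every edf1-D library than in any WT library, yet the gene total was higher in edf1-D, at 96.6 ± 14.7 FPKM against 33.3 ± 3.65 FPKM in WT (SD, n = 3 each).

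T003 of Zm00001eb296480 was at 10.5, 9.06 and 8.91 FPKM in edf1-D, against 0.69, 0 and 0.16 FPKM in WT. Transcript T002 of the gene was at 3.13, 3.27 and 1.75 FPKM in edf1-D, against 6.33, 4.24 and 4.01 FPKM in WT. Its total averaged 12.2 ± 1.48 FPKM in edf1-D and 5.20 ± 1.65 FPKM in WT (SD, n = 3 each), with no overlap.

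The total of Zm00001eb127580 was nearly level, at 6.27 ± 0.25 FPKM in edf1-D and 6.78 ± 1.23 FPKM in WT (SD, n = 3 each). T003 was at 5.25, 5.87 and 4.29 FPKM in edf1-D, against 0.76, 1.30 and 1.65 FPKM in WT. T001 was at 1.08, 0 and 0.95 FPKM in edf1-D, against 6.79, 5.85 and 3.75 FPKM in WT. Both isoforms were without overlap, and WT replicate 3 held the smallest gap between them.

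Zm00001eb425170 had a switch of 57.9 points: its T001 held 67.2% to 76.7% of the gene in edf1-D, against 11.3% to 21.0% in WT. In Zm00001eb222860, T001 was at 3.32, 3.77 and 2.64 FPKM in edf1-D, against 6, 4.29 and 2.08 FPKM in WT. T002 of this gene was at 1.11, 1.47 and 0.59 FPKM in edf1-D, against 9.21, 17.4 and 10.6 FPKM in WT. As in Zm00001eb431240, the edf1-D leader overlapped between genotypes and the WT leader was lower in edf1-D.

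**Figure D2:**
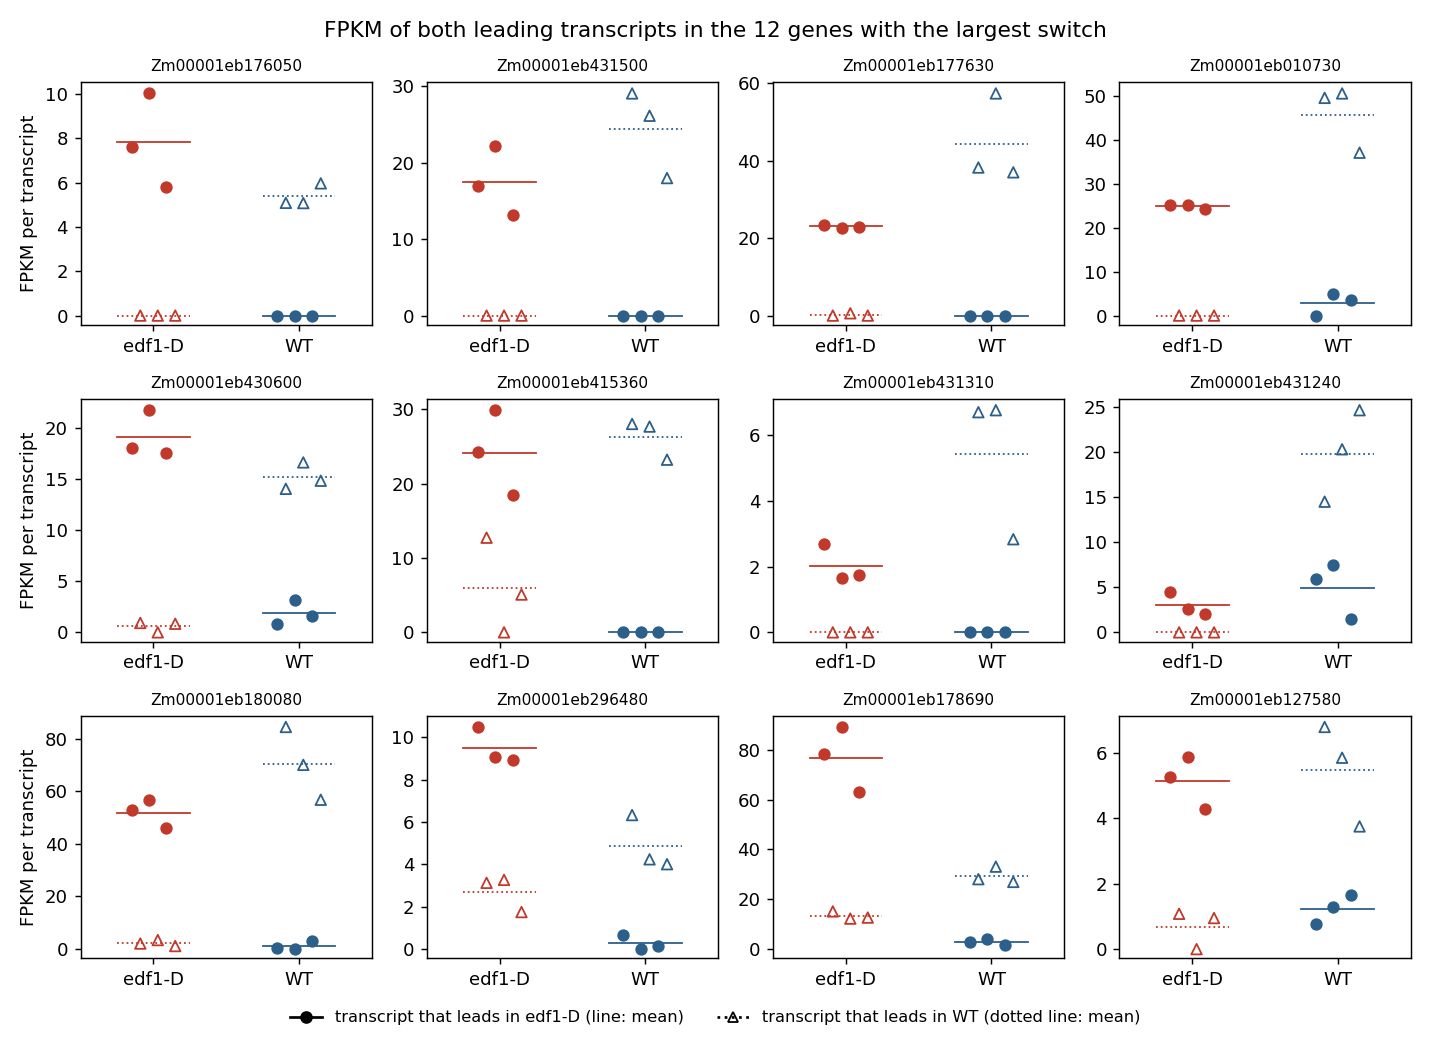
FPKM per transcript (y axis, one scale per panel) of both leading transcripts in the 12 genes with the largest switch, for edf1-D (left, red) and WT (right, blue). Filled circles are the transcript that leads in edf1-D and open triangles the one that leads in WT, 1 point per library with a line at the mean; in Zm00001eb176050 and Zm00001eb431500 each transcript is at 0 in the other genotype, and in Zm00001eb431240 the edf1-D leader overlaps between genotypes.

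Over all 30 genes, 4 patterns could be told apart by the mean level of each leader. In 13 genes the edf1-D leader was at least 2 times higher in edf1-D and the WT leader at least 2 times lower. In 6 genes only the edf1-D leader was 2 times higher, among them Zm00001eb296480, and in 8 only the WT leader was 2 times lower, among them Zm00001eb431240. In Zm00001eb311420, Zm00001eb063100 and Zm00001eb283870 neither leader moved that far. Both leaders were free of overlap between genotypes in FPKM in 12 genes. The rule used the same values and favours this, and its share over all genes was not computed, so nothing is read from the count. A leader was listed at 0 in all libraries of the other genotype in 6 genes, and this held for both leaders in 3 of them (Zm00001eb176050, Zm00001eb431310 and Zm00001eb431500).

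The summed level of the gene comes from the same contrast and the same libraries, and the rule set minimums on it. With limma on log2(FPKM + 1), fitted over 18719 genes with adjustment over all of them, the total was called in 8 of the 30 genes at an adjusted p under 0.05, where 3.64% of all tested genes were called. Of these 8, 3 were higher in edf1-D (1.45% of all tested genes) and 5 lower (2.19% of all tested genes). The count is given beside its background, which includes genes that could not be members, and nothing is read from it. The count was lower with any 1 library left out. It was 4 without edf1-D replicate 1, 5 without edf1-D replicate 2 and 4 without edf1-D replicate 3. It was 5 without WT replicate 1, 4 without WT replicate 2 and 6 without WT replicate 3. In the same fits 222, 500, 244, 376, 239 and 329 of all genes were called, also below the 681 with all libraries. The count of members was 13 when all libraries were rescaled to one sum, a scaling under which 2130 of all genes were called. The direction of the total turned with the scaling in 2 of the 30 genes, Zm00001eb127580 and Zm00001eb311420.

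The 3 genes with a called higher total were Zm00001eb418980, Zm00001eb178690 and Zm00001eb296480, with log2 differences of 1.70 ± 0.17, 1.504 ± 0.19 and 1.12 ± 0.23 (limma SE). In Zm00001eb418980 the edf1-D leader was already present in WT and was 6.29 times higher in edf1-D on average. Its T006 was at 44.0, 42.3 and 43.0 FPKM in edf1-D, against 6.97, 7.20 and 6.37 FPKM in WT. T001 was at 8.05, 8.09 and 5.86 FPKM in edf1-D, against 7.43, 10.2 and 7.25 FPKM in WT. T001 overlapped between the genotypes, and in WT both isoforms were close, with T001 ahead by 1.07 times in WT replicate 1.

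The 5 genes with a called lower total were Zm00001eb431240, Zm00001eb222860, Zm00001eb431310, Zm00001eb010730 and Zm00001eb427480. Their log2 differences were -2.71 ± 0.26, -1.71 ± 0.25, -1.55 ± 0.32, -1.01 ± 0.17 and -0.94 ± 0.17 (limma SE). In edf1-D the mean totals of Zm00001eb431240, Zm00001eb222860 and Zm00001eb431310 were 3.03, 4.30 and 2.07 FPKM, under the mean minimum of 5 FPKM. A gene that low in edf1-D could pass only with a higher total in WT, so nothing is read from their direction. In Zm00001eb427480, T001 was at 2.79, 3.67 and 4.04 FPKM in edf1-D, against 6.07, 5.36 and 3.29 FPKM in WT. T003 was at 2.26, 1.26 and 2 FPKM in edf1-D, against 6.42, 5.63 and 6.96 FPKM in WT. Both isoforms were lower on average in edf1-D, T003 more so, and in WT replicates 1 and 2 they were close to each other.

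Across the 30 genes the mean total was higher in edf1-D in 13 and lower in 17. The median log2 difference was -0.16, beside -0.12 over all tested genes. Totals did not overlap between genotypes in 16 genes, 5 of them higher in edf1-D, where 8.37% of all tested genes lay wholly above WT, and 11 lower, where 18.0% lay wholly below. In either direction 26.3% of all tested genes were without overlap. The 18719 tested genes passed a lower minimum than the 30 genes and include genes that could not be members. The share over the 5832 genes was not computed, and nothing is read from these counts. Genes with near-full replacement in share included ones with overlapping totals (Zm00001eb176050, Zm00001eb431500, Zm00001eb180080) and ones without (Zm00001eb177630, Zm00001eb010730, Zm00001eb431310).

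**Figure D3:**
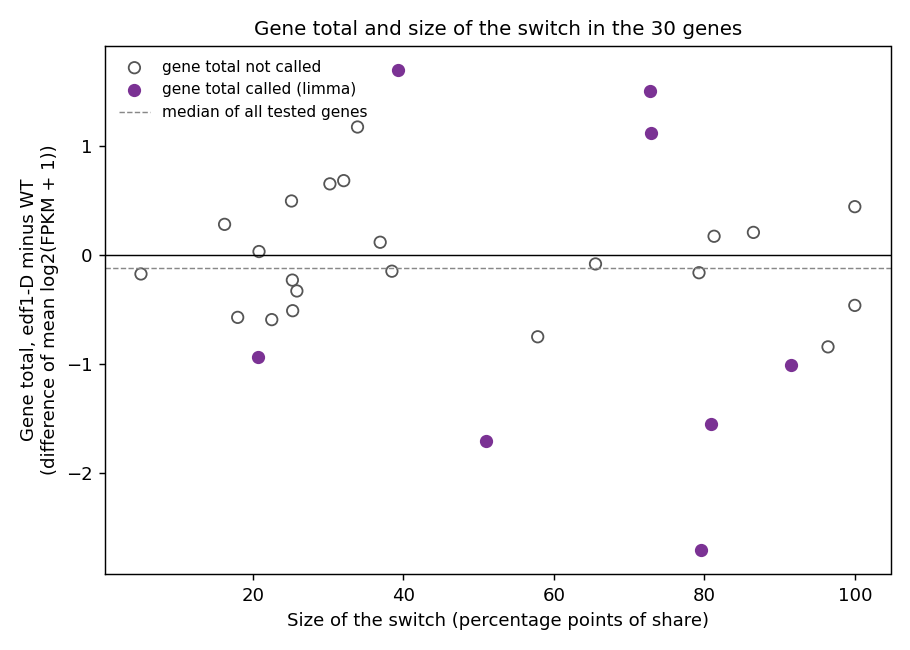
Difference of mean log2(FPKM + 1) of the gene total, edf1-D minus WT (y axis), against the size of the switch in percentage points (x axis), 1 point per gene for the 30 genes. Filled points are the 8 genes whose total was called by limma, and the dashed line is the median of all tested genes (-0.12); large switches occur with totals on both sides of 0.

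Isoform shares were also fitted with limma, as the log2 ratio between a transcript and the rest of its gene, each in FPKM with 1 added. Among 2671 genes with a transcript of intermediate share, 32 had at least 1 transcript past an adjusted p of 0.05, 1.2% of those tested. All 30 genes were among those tested and 13 were called, 5 of which also had a called total. The same isoform levels chose the genes, so nothing is read from the count. With the replicate number as a block, 8 of the 30 and 16 of all genes were called. The 32 genes were 18 without edf1-D replicate 1 and 21 without edf1-D replicate 3.

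At the other end, the leader changed in Zm00001eb283870 although both leading isoforms were close to each other in every library. This gene, the most abundant of the 30 genes, had the smallest switch of 5.13 points. T004 was at 78.7, 93.9 and 68.1 FPKM in edf1-D, against 86.7, 99.2 and 62.8 FPKM in WT. T006 was at 68.7, 82.9 and 61.0 FPKM in edf1-D, against 95.5, 101 and 72.0 FPKM in WT. Both overlapped between genotypes in FPKM, yet T004 held 52.5% ± 0.02 of the gene in edf1-D and 47.6% ± 1.45 in WT (SD, n = 3 each), and in WT replicate 2 T006 led by only 1.02 times.

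In Zm00001eb063100, T003 was at 8.71, 8.57 and 7.43 FPKM in edf1-D, against 5.23, 5.30 and 2.85 FPKM in WT. T002 was at 6.64, 7.95 and 6.07 FPKM in edf1-D, against 8.66, 9.84 and 5.58 FPKM in WT. The level of T003 was higher in every edf1-D library, while that of T002 overlapped.

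Zm00001eb311400, with 2 transcripts, had T002 at 4.82, 3.60 and 2.34 FPKM in edf1-D, against 3.24, 5.32 and 3.04 FPKM in WT. T001 was at 2.43, 3.30 and 1.94 FPKM in edf1-D, against 5.56, 7.21 and 4.54 FPKM in WT. Only T001 was free of overlap between genotypes, and the switch came to 18.0 points.

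The remaining 11 genes had switches between 20 and 50 points. In Zm00001eb119070, T001 held 56.6% to 81.5% of the gene in edf1-D, against 27.3% to 35.9% in WT. The T001 share of Zm00001eb185100 was nearly constant in edf1-D at 55.7% to 57.2%, against 13.9% to 40.04% in WT. For Zm00001eb057200 it was 53.0% to 69.6% in edf1-D, against 31.9% to 40.7% in WT. In these 3 genes every edf1-D library gave the T001 model the larger part of the gene's FPKM and every WT library the smaller. The rule fixes this outcome in Zm00001eb119070 and Zm00001eb057200, which have 2 transcripts each, and favours it in Zm00001eb185100.

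In Zm00001eb209100 T002 held 57.6% to 72.4% in edf1-D, against 10.97% to 49.8% in WT, and in WT replicate 1 T001 led by 1.01 times. T003 of Zm00001eb334740 held 50.5% to 76.2% in edf1-D, against 34.2% to 43.8% in WT. T003 of Zm00001eb100920 held 40.5% to 65.5% in edf1-D, against 13.3% to 40.3% in WT. The ranges of Zm00001eb100920 nearly touched. T004 of Zm00001eb296300 held 47.0% to 67.3% in edf1-D, against 0% to 30.3% in WT. Its WT leader T002 averaged 6.68 FPKM in edf1-D and 6.37 FPKM in WT. T001 of Zm00001eb061800 held 26.7% to 77.8% in edf1-D, against 18.1% to 22.7% in WT. Leads were thin here too. The edf1-D leader was ahead by 1.02 times in Zm00001eb296300 and 1.03 times in Zm00001eb334740 in replicate 1. In replicate 3 it was ahead by 1.05 times in Zm00001eb061800 and 1.11 times in Zm00001eb100920.

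Several isoforms shared the gene in the other 3, and also in Zm00001eb061800 and Zm00001eb296300. Transcripts outside both leaders held 21.4% of Zm00001eb061800 in edf1-D and 32.5% in WT on average. For Zm00001eb296300 they held 8.33% in edf1-D and 31.7% in WT. T002 of Zm00001eb428840 held 41.9% to 54.5% in edf1-D, against 6.52% to 40.1% in WT, and transcripts other than both leaders held 43.5% in edf1-D and 15.2% in WT on average. In Zm00001eb356780, with 8 transcripts, T006 held 33.6% to 49.7% in edf1-D, against 0% to 14.6% in WT. Its WT leader T008 held 0% to 44.6% in edf1-D, against 43.1% to 60.2% in WT, so that share overlapped, with edf1-D replicate 2 the high one. Zm00001eb311420 was the other gene with such an overlap, its T002 at 10.03% to 46.1% in edf1-D, against 43.1% to 69.9% in WT. The lead in this gene was only 1.01 times in edf1-D replicate 2.

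The leader was at least 1.5 times the next isoform in every library in 14 genes, which were the same 14 genes that had a switch of 50 points or more, both measures being made from the same shares. The leader was under 1.2 times the next isoform in at least 1 library in 13 genes, and between these bounds in 3. In Zm00001eb176050 and Zm00001eb431500 the next isoform was listed at 0 in all 6 libraries. Among the other 28 genes the smallest lead lay in an edf1-D library in 18, with replicate 2 the one in 10 of them, and in a WT library in 10.

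The 30 genes had 2 to 8 annotated transcripts with a median of 4, beside a median of 3 over the 5832 genes, and 9 of them (30%) had just 2, beside 39.0%. Their mean total ran from 5.28 to 163 FPKM with a median of 9.74 FPKM, beside a median of 15.3 FPKM. The leading isoform held 68.8% of the gene at the median, beside 92.0%. The genes thus sat among the lower and more evenly divided ones of those that could be chosen, a description to which the rule itself contributes. The first transcript model, T001, led in edf1-D in 11 genes and in WT in 7, and in 12 it led in neither. Over the 5832 genes it led in all edf1-D libraries in 34.2% and in all WT libraries in 33.4%. The leader of edf1-D had the lower transcript number in 16 of the 30 genes.

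The mean FPKM of the edf1-D leader in edf1-D was below that of the WT leader in WT in 19 genes and above it in 11, with a median ratio of 0.83. As the deposited totals of all tested genes were lower in edf1-D at the median (-0.12 on the log2 scale), ratios close to 1 depend on the scaling, and nothing particular to the 30 genes is read from this balance. The ratio ran from 0.153 in Zm00001eb431240 to 5.19 in Zm00001eb418980. Of 21 genes with 3 or more transcripts, 13 had under 10% of their FPKM outside both leaders in both genotypes, and 6 had 25% or more outside them in at least one.

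In the order of the gene IDs, 21 of the 30 genes had fewer than 100 of the 5832 genes between them and another member. The 5832 genes came to 194 per member on average, and nothing is read from the count. The bound of 100 was set after the order had been seen. Whether the members lie closer together than genes taken at random was not tested. The 21 genes formed 5 stretches. The longest ran from Zm00001eb415360 to Zm00001eb431500, with 9 members over 205 of the genes, and the next from Zm00001eb176050 to Zm00001eb185100, with 5 members over 119. Zm00001eb311400 and Zm00001eb311420 had no other of the 5832 genes between them, nor had Zm00001eb431240 and Zm00001eb431310.

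These 2 stretches were drawn around members and chosen for holding the most of them, so their density of members is no result. Of their 14 members 10 had a switch of 50 points or more, against 4 of the other 16, and the median switch was 79.4 points inside and 28.0 outside, which is a description of stretches picked after the fact. That IDs follow the order of genes along the chromosomes was not checked here.

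**Figure D4:**
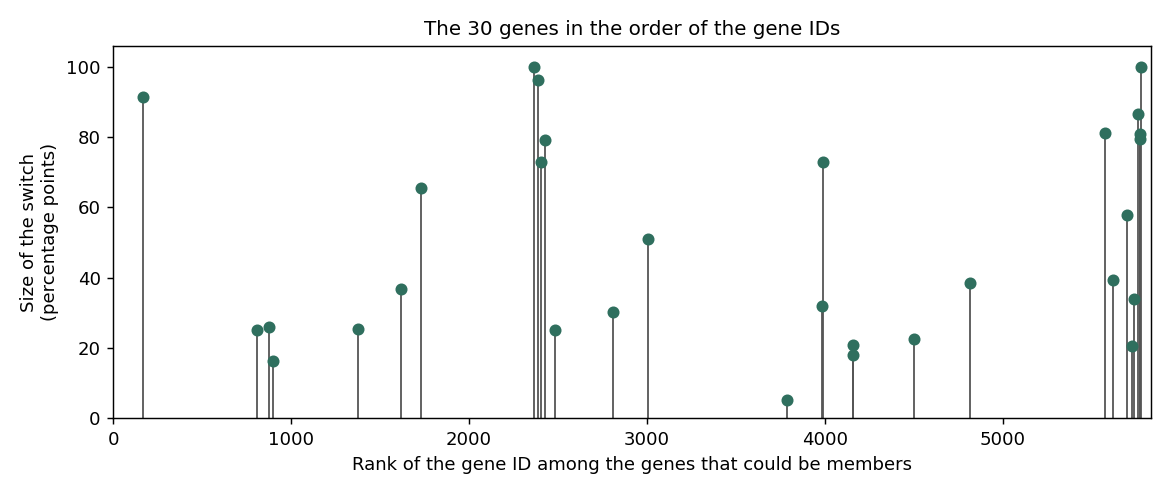
Size of the switch in percentage points (y axis) of the 30 genes against the rank of their ID among the 5832 genes that could be members (x axis), 1 stem per gene. Between Zm00001eb176050 and Zm00001eb185100 lie 5 members, and between Zm00001eb415360 and Zm00001eb431500 lie 9.

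At the edge of the rule, the members with the lowest mean total were Zm00001eb431310 at 5.28 FPKM and Zm00001eb356780 at 5.60 FPKM. Just below the minimum lay Zm00001eb233310 at 4.53 FPKM and Zm00001eb164530 at 4.23 FPKM. T001 of Zm00001eb233310 was at 3.48, 3.45 and 2.62 FPKM in edf1-D, against 0.14, 0.15 and 0.07 FPKM in WT. Its T002 was at 0.56, 0 and 0.64 FPKM in edf1-D, against 6.70, 5.68 and 2.60 FPKM in WT. With a switch of 83.2 points it would have ranked among the largest, whereas Zm00001eb164530 had 14.7 points.

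A further 126 genes missed the rule by 1 library alone. The library out of step was WT replicate 1 in 36 of them, edf1-D replicates 1 and 2 in 22 each, WT replicate 2 in 21, edf1-D replicate 3 in 13 and WT replicate 3 in 12. The largest switches among these were 73.8 points in Zm00001eb184650 and 70.0 points in Zm00001eb135520. T002 of Zm00001eb184650 was listed at 0 in all 3 edf1-D libraries, against 18.7, 40.2 and 22.9 FPKM in WT. Its T003 was at 2.52, 1.96 and 1.59 FPKM in edf1-D, against 1.16, 0.56 and 0 FPKM in WT. In Zm00001eb135520, T001 was at 7.39, 40.3 and 10.9 FPKM in edf1-D, against 11.2, 0 and 0 FPKM in WT. Its T002 was at 0.36, 0 and 0 FPKM in edf1-D, against 1.94, 8.52 and 8.35 FPKM in WT. WT replicate 1 was the one out of step in both genes. In Zm00001eb184650 a transcript other than T002 and T003 led there, with a value not given here. In Zm00001eb135520, T001 stood above T002 there.

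The rule gave more genes with any 1 library left out, and a rule over fewer libraries has fewer leaders to satisfy. It gave 52 genes without edf1-D replicate 1, 53 without edf1-D replicate 2 and 43 without edf1-D replicate 3. It gave 64 without WT replicate 1, 48 without WT replicate 2 and 42 without WT replicate 3. The 30 genes were all among them except 1 without WT replicate 1 and 2 without WT replicate 2. Taking the leader from the mean of each genotype gave 268 genes, and asking for a lead of 1.5 times in every library gave 14.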

How the data were processed

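The values deposited by the authors are 1 number per transcript and library, read here as FPKM because they have 2 decimals and sums that differ between libraries. No label states the unit, and a TPM column with rows left out would look alike. Trimmomatic 0.36, HISAT2 and RSEM appear among the tools in the submitters' processing notes, without a role. The build of the genome and the strandedness of the libraries are not given in the sources used here. Transcripts were summed per gene and leaders found with Python 3.11.15 and pandas 2.3.3. Totals at 0.5 FPKM or more in at least 3 libraries were fitted with limma 3.58.1 (R 4.3.3, intensity trend, pseudocount 1). Shares were fitted with limma too, for transcripts at 10% to 90% of their gene. Both fits were two-sided with Benjamini-Hochberg adjustment over the whole table and were also run on simulated data. The simulated shares came from genes with 2 transcripts and had no 10% to 90% bound. That run did not cover the setting used here. The planned count test was replaced by limma, as no counts were present.

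The members and lists were chosen with earlier results of these data known. Values in each library are given for the 12 largest and 3 smallest switches, the 3 highest totals, each called total and each leader listed at 0 in the other genotype. A planned list of splicing genes and the tissue markers need gene names and were not used. Replicate numbers were not taken as pairs.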

Additional observations from a re-analysis of the deposited data

How the results depend on the processing

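The 30 genes with a different leader became 15 with a mean of at least 10 FPKM, 17 with a lead of at least 1.2 times, 14 with a lead of at least 1.5 times, 268 with the leader of the genotype means and 100 when WT replicate 1 and edf1-D replicate 2 were both left out, which was chosen after seeing the data. Leaving out 1 library gave 42 to 64. A rule over fewer libraries has fewer leaders to satisfy. The 8 members with a called total were 13 with one sum in every library and 4 to 6 with 1 library left out. Over all genes the 681 called totals were 2189 with median-ratio scaling, 2130 with one sum, 2054 with quantile normalization, 418 with no filter, 1065 with that pair of libraries left out, and 222 to 500 with 1 library left out. The 13 members with a called share were 8 with a mean of at least 10 FPKM, where fewer of them are tested, and 9 to 13 with 1 library left out. Over all genes the 32 with a called share were 18 to 31 with 1 library left out. The replicate block gave 8 members and 16 genes with a called share, and 10 members and 951 genes with a called total. Deviations of same-numbered libraries correlated across genes at -0.19, -0.01 and 0.35 for replicates 1, 2 and 3. The numbers were not taken to pair them, though the third libraries of both genotypes deviated in part alike. Whether libraries of one number share a batch was not tested. Of 63 alternative values 33 stayed within 1.5 times. The cause of the other differences was not tested. Values multiplied by transcript length were not run, as no lengths were at hand, and count models were not run. The unknown depth limits isoforms near 0.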
